A study of Arabidopsis thaliana with 29 samples.

Results

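The genomic regions described here are 559 of the 5055 H3K27me3 peaks that the first ChIP-seq library of *Arabidopsis thaliana* Col-0 seedlings yielded on the nuclear chromosomes. They were chosen by position and length alone. A peak was taken if its centre lay at 12 to 18 Mb of chromosome 1, 1 to 7 Mb of chromosome 2, 11 to 17 Mb of chromosome 3, 1.5 to 6.5 Mb of chromosome 4 or 9 to 15 Mb of chromosome 5, and if it was shorter than 4000 bp. These 5 windows surround the centromeres, and the selected regions are called centromere-proximal peaks (members in the plots, numbered M1 to M559 along the genome). They were compared with the 4001 peaks of the same list under 4000 bp on the chromosome arms. Another 38 peaks of the windows were 4000 bp or longer. The longest centromere-proximal peak, M111 on chromosome 1 (chr1:17357079-17361034), had 3956 bp and a peak score of 459.39, and the shortest window peak above the limit (chr5:10452526-10456537) had 4012 bp and a score of 412.47.

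The study asked how single Polycomb group (PcG) proteins contribute to H3K27me3 and to gene repression in seedlings. H3K27me3 was profiled in 10 libraries, from the mutants *clf-29*, *atbmi1a,b* and *atring1a,b*, each with 2 libraries as for the wild type Col-0, and from the LHP1 mutant lines *tfl2-2* and *lhp1-6* with 1 library each, which were treated as 1 genotype. RNA was sequenced in 14 libraries of the same genotypes, *swn* and the double mutant *clf-29swn-21* (7 groups of 2). All mutants were in the Col background, and all plants were untreated and harvested after 2 weeks under 16 h of light and 8 h of dark. The labels give seedlings without roots for every sample, at 21 °C for the first libraries and for *tfl2-2* and the *lhp1-6* RNA, and at 22 °C for the second libraries, the *lhp1-6* ChIP and both *swn* libraries. By the Methods, the double mutant *clf-29swn-21* alone came from MS medium, with the entire plant taken, and all other lines from soil, so that its genotype and its growth conditions cannot be told apart. Whether replicates came from separate cultures is stated for some genotypes only, so p-values measure the spread between these libraries.

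PcG proteins keep genes silent through chromatin. Polycomb repressive complex 2, with CLF or SWN as its catalytic subunit, trimethylates lysine 27 of histone H3. LHP1 is a chromodomain protein that binds this mark, and the AtBMI1 and AtRING1 proteins are the RING-finger subunits of Polycomb repressive complex 1, which ubiquitinates histone H2A. In Arabidopsis the mark lies mostly on single genes of the arms that are silent in the tissue studied, whereas the DNA around the centromeres is rich in transposons and carries DNA methylation and dimethylated lysine 9 of histone H3 instead.

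Sequence of 8 centromere-proximal peaks is shown because the results below turn on them. M133, M230, M302, M440 and M538 had the highest score of their window, and M89, M192 and M258 were the 3 highest-scoring ones that both Col-0 lists held and both lists of a mutant genotype lacked. Each line gives the 300 bp around the centre of the peak on the forward strand, from the RefSeq assembly TAIR10.1. Capitals mark matches, on either strand, to the telo-box AAACCCT, the GAGAGA repeat and the RY element CATGCA, short motifs known from Polycomb targets of plants, or to the G-box CACGTG.
M133 at chr1:17780869-17781168, in PER1: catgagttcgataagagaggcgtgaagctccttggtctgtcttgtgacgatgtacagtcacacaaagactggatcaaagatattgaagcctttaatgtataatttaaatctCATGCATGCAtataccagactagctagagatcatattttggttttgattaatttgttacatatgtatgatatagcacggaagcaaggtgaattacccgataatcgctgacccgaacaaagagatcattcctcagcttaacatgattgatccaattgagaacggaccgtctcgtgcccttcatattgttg
M230 at chr2:6452680-6452979, in GH3.1: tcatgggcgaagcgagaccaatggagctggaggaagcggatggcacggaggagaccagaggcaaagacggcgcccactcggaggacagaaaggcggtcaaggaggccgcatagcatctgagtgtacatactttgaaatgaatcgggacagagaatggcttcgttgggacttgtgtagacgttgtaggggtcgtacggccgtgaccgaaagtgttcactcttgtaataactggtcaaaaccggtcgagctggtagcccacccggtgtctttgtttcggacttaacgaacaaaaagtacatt
M302 at chr3:14201788-14202087, beside 5.8S ribosomal RNA gene AT3G41979: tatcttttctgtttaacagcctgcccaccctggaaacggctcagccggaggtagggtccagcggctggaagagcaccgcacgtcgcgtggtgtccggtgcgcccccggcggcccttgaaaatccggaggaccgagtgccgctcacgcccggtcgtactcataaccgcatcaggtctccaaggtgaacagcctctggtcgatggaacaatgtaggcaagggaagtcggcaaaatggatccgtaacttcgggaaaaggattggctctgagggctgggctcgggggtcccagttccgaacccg
M440 at chr4:5668291-5668590, in AT4G08868: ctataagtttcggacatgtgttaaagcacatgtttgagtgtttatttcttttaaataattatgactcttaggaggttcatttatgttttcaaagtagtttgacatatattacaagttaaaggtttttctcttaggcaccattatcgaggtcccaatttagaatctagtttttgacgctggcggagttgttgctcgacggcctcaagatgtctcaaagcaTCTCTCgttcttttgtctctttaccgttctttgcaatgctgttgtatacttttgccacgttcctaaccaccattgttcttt
M538 at chr5:14644087-14644386, in CHX24: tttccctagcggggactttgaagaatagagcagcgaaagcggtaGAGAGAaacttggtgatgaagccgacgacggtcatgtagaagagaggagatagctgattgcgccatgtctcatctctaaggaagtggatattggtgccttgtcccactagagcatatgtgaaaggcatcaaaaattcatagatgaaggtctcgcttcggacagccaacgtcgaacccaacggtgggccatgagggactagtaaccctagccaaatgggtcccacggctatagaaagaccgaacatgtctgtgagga
M89 at chr1:16868323-16868622, upstream of NPQ4: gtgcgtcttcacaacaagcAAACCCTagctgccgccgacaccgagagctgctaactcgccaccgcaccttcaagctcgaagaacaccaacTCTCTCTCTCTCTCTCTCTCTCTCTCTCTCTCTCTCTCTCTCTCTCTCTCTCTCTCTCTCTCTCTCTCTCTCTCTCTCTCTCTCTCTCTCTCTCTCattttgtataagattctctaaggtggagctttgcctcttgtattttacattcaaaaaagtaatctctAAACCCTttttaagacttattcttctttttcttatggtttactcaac
M192 at chr2:3668939-3669238, in pseudogene AT2G09800: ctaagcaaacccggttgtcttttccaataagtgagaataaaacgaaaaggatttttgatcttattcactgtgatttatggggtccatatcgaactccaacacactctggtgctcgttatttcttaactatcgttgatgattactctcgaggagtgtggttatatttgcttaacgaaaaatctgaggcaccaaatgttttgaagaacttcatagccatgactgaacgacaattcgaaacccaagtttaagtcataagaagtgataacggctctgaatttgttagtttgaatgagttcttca
M258 at chr3:11108741-11109040, in pseudogene AT3G29150: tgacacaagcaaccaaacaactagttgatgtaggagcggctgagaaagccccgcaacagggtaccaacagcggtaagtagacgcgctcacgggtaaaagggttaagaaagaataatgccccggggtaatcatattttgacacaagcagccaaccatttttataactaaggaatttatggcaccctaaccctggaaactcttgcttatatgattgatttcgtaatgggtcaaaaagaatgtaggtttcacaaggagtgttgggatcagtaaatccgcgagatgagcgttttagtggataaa

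The stretch of M89 holds a run of the GAGAGA repeat on the reverse strand with a telo-box on either side of it. M133 holds overlapping RY elements, M440 and M538 hold a single GAGAGA match each, and the stretches of M192, M230, M258 and M302 hold no match. Over 1000 bp around the centre, 29.2% of the 559 peaks had a telo-box and 65.1% a GAGAGA repeat, against 28.9% and 64.0% of the arm peaks. An RY element was present in 43.3% of the centromere-proximal peaks (95% Wilson interval 39.2 to 47.4) and in 48.6% of the arm peaks (47.1 to 50.2), and a G-box in 11.4% (9.07 to 14.4) and 16.6% (15.5 to 17.8). Of all windows of the same length tiled over the 5 centromeric windows, 23.4% had a telo-box, 50.9% a GAGAGA repeat, 33.3% an RY element and 7.43% a G-box, and of those tiled over the arms 21.5%, 61.4%, 33.5% and 11.2%. The median GC content was 37.2% in the centromere-proximal peaks and 37.6% in the arm peaks. A match is a description of the letters and no evidence of a bound factor.

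The peaks were unevenly spread within the windows. Chromosomes 1 to 5 held 143, 109, 131, 88 and 88 of them. Their density was 19.3 per Mb, against 44.4 per Mb on the arms, but per 100 protein-coding genes it was 20.4, against 16.7 on the arms. Few lay at the centromeres themselves: 32 peaks (5.72%) lay within 1 Mb of the centre of their window and 93 (16.6%) within 1.5 Mb, so that most belong to the outer, gene-bearing flanks. Pseudogenes, the class into which the annotation also puts many transposon remnants, made up 57.4% of the protein-coding genes and pseudogenes of the windows and 4.57% on the arms. On chromosome 2, a stretch of 0.25 Mb that begins 0.75 Mb left of the window centre held 57 protein-coding genes and 0 of the peaks. Reads of low mapping quality had been removed, and how well reads could be placed in this stretch was not tested.

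**Figure D1:**
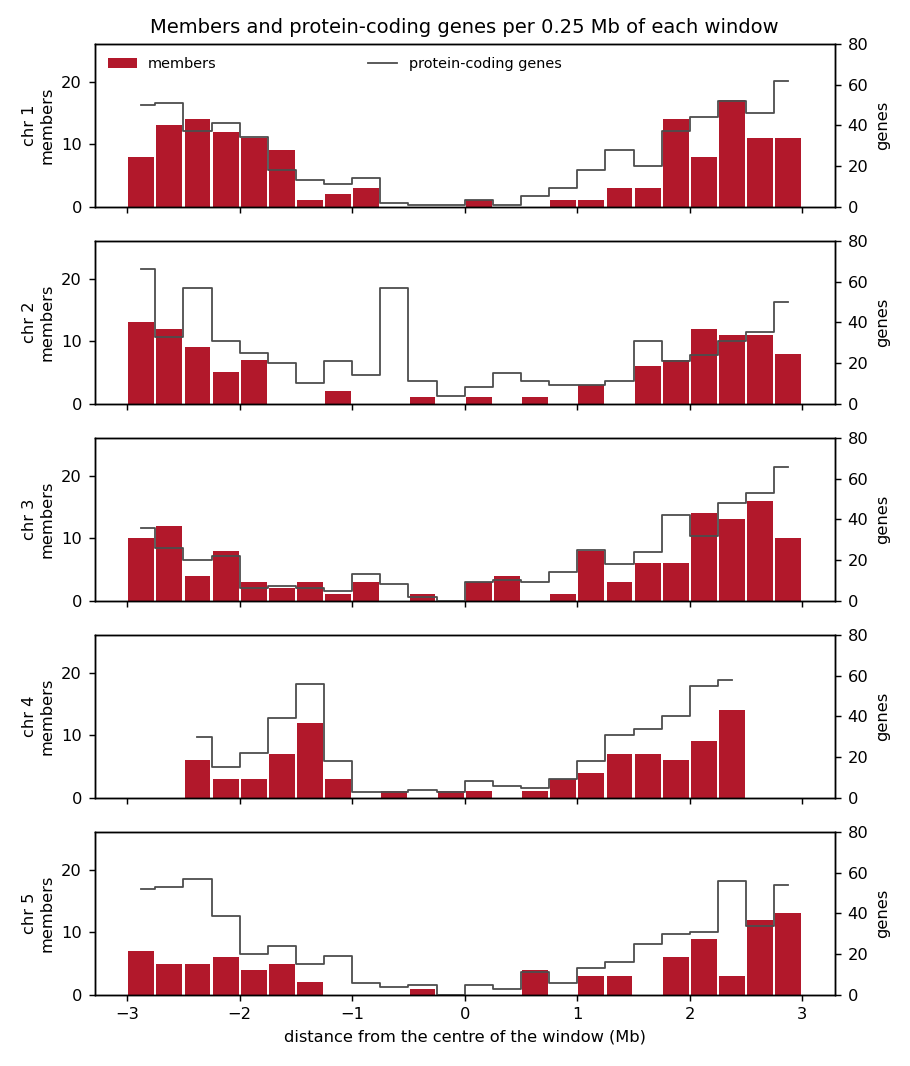
Number of centromere-proximal peaks (red bars, left axis) and of protein-coding genes (grey line, right axis) per 0.25 Mb, by distance in Mb from the centre of the window on each of the 5 chromosomes. The bars are highest in the outer flanks and nearly empty within 1 Mb of the centre, which held 32 of the 559 peaks.

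With the gene body and the 1000 bp before its start counted as the gene, 77.1% of the centromere-proximal peaks touched a protein-coding gene (95% interval 73.4 to 80.4), against 90.7% of the arm peaks (89.8 to 91.6). Pseudogenes were touched by 20.4% (17.3 to 23.9) and 5.55% (4.88 to 6.30), and a pseudogene with no protein-coding gene by 11.8% and 1.65%. A further 10.4% of the centromere-proximal peaks and 6.90% of the arm peaks touched no annotated gene at all. The 633 genes at the centromere-proximal peaks were 504 protein-coding genes, 116 pseudogenes and 13 RNA genes. The pseudogenes were nevertheless a small part of those present, since the 116 were 3.15% of the pseudogenes of the windows, whereas 20.2% of the pseudogenes of the arms lay at arm peaks.

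Among the protein-coding genes, the peaks held 27 of 76 F-box genes of the windows (35.5%, against 38.2% of F-box genes on the arms), which encode substrate receptors of ubiquitin ligases. They held 7 of 22 MADS-box and AGAMOUS-like genes (31.8%, against 37.5%), transcription factors best known from flower development, and 33 of 121 other transcription factor genes (27.3%, against 26.7%). Cytochrome P450 and glycosyltransferase genes had a similar share, 38.9% and 35.9%. The share was lower for kinase genes, with 5 of 102 (4.90%, against 13.8% on the arms), and for small cysteine-rich and self-incompatibility-like peptides, with 9 of 128 (7.03%, against 20.2%). These shares are descriptions of 1 peak list.

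Transcripts at these peaks were scarce in the wild type. The median protein-coding gene at a centromere-proximal peak had 0.0390 and 0.0575 RPKM (reads per kilobase of exon, scaled to the depth of the library) in the 2 Col-0 libraries, against 0.379 and 0.421 RPKM at arm peaks. Protein-coding genes of the windows away from the peaks had medians of 0.681 and 0.558 RPKM, and those of the arms 8.24 and 8.19 RPKM. Of the 504 genes, 69.8% stayed under 1 RPKM in Col-0, against 51.0% of the other protein-coding genes of the windows and 55.6% of those at arm peaks, and 37.1% had no read at all, against 34.6% and 23.2%. The 116 pseudogenes had a median of 0 in all 14 libraries.

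The peak scores, which the caller assigned on a scale that the sources do not explain, had a median of 150.2 (50 to 1032) in the centromere-proximal peaks, against 159.5 in the arm peaks, and the median lengths were 1483 and 1660 bp. Since the lists differ in size and hold no read depth, scores were compared only within a list. In all 10 lists, window peaks under 4000 bp had a lower median score than arm peaks, by 2.36 to 103.0, with a mean difference of -31.2 (exact sign-flip test over lists, two-sided, p = 0.00195, the smallest that 10 lists can give). The mean was -46.6 in the 5 lists of plants grown at 21 °C and -15.9 in the 5 lists at 22 °C. Window peaks were also shorter than arm peaks in every list. With arm peaks weighted to the lengths of the window peaks the mean difference was -10.7, lower in 5 of 10 lists, and no longer passed the test (exact p = 0.137).

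The next comparison asks whether peaks near centromeres differed from those on the arms in being found again when a PcG protein was missing. A peak was counted as kept if a peak of the other list overlapped it by at least 1 bp. In *clf-29*, 75.3% and 72.1% of the 559 centromere-proximal peaks were kept in libraries 1 and 2, against 80.8% and 72.9% of the arm peaks. In the LHP1 mutants, 91.2% (*tfl2-2*) and 90.0% (*lhp1-6*) were kept, against 89.9% and 90.6%. In *atbmi1a,b* the shares were 73.5% and 54.7%, against 68.1% and 60.4%, and in *atring1a,b* 95.7% and 42.9%, against 96.2% and 43.0%. The second Col-0 list itself kept only 63.1% of the centromere-proximal peaks and 61.1% of the arm peaks.

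In *clf-29* 1 and *atbmi1a,b* 2 fewer centromere-proximal than arm peaks were kept and in *atbmi1a,b* 1 more, with counting intervals that did not overlap, and the 2 lists of *atbmi1a,b* thus pointed in opposite directions. Lists of *atbmi1a,b*, and more so of *atring1a,b*, differed from each other by more than the chromosome regions did. The difference between centromere-proximal and arm peaks averaged -0.48 percentage points over the 9 lists (exact sign-flip test, two-sided, p = 0.750), with single lists between -5.67 and 5.47 points, and its sign changed with the choice of arm peaks (0.29 with arm peaks of every length, 1.33 when they were weighted to the scores of the members). The mean was 0.216 points in the 4 lists at 21 °C and -1.03 in the 5 at 22 °C. All 9 differences share the peaks of the first Col-0 list, and the p-value does not cover the spread that this list adds. The covered share of the length of kept peaks had little room to differ, since its median was 100% in centromere-proximal and arm peaks alike in *clf-29* 2, *atbmi1a,b* 2, *atring1a,b* 1 and Col-0 2.

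**Figure D2:**
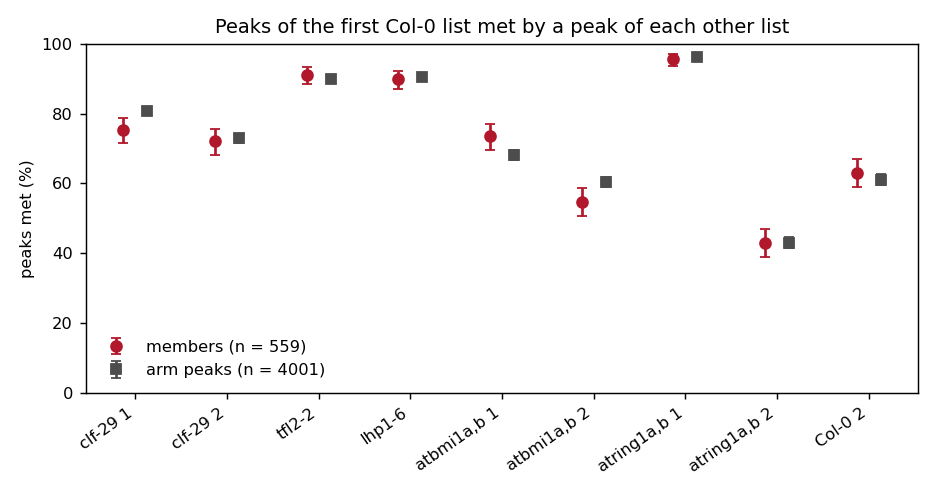
Percentage of peaks of the first Col-0 list that overlap a peak of each other list by at least 1 bp, for the 559 centromere-proximal peaks (red circles) and the 4001 arm peaks (grey squares), with 95% Wilson intervals that cover counting error only. The 2 symbols lie within 5.67 points of each other in every list, at 42.9% and 43.0% in *atring1a,b* 2 and at 95.7% and 96.2% in *atring1a,b* 1.

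Kept peaks had higher scores in Col-0 than lost ones. Averaged over the 9 other lists, 56.9% of the centromere-proximal peaks with scores up to 95.04, 75.4% of those up to 217.03 and 87.3% of those above were kept (187, 186 and 186 peaks), and arm peaks within the same limits gave 54.4%, 72.6% and 88.5%. In *clf-29* 1, for example, kept peaks had a median score of 179.4 and lost ones 80.8, and in Col-0 2 the medians were 192.0 and 86.5. Of the 559 peaks, 119 (21.3%) were found in all 10 lists, against 23.6% of the arm peaks, and none was confined to the first Col-0 list. The 66 peaks at a pseudogene and no protein-coding gene were kept in 71.5% on average, against 74.97% of the 431 at protein-coding genes, a difference that did not pass the test (-3.42 points, below 0 in 6 of 9 lists, exact sign-flip p = 0.0547). This test, too, rests on the peaks of the same Col-0 list. The 58 peaks at no annotated gene, M302 among them, had a median score of 101.8 and were kept in 62.1%, and in *clf-29* 2 in 37.9%. The 93 peaks within 1.5 Mb of the window centre were kept in 69.1% and had a median score of 112.5, against 74.0% and 154.96 for the 466 peaks farther out.

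A stricter reading takes only the 353 centromere-proximal peaks present in both Col-0 lists and asks which of them were missing from both lists of a mutant genotype. This held for 38 peaks in *clf-29* (10.8%, 95% interval 7.94 to 14.4), against 8.46% of 2446 arm peaks (7.42 to 9.63). It held for 9 peaks in the LHP1 mutants (2.55%, 1.35 to 4.77, against 1.92%) and for 31 in *atbmi1a,b* (8.78%, 6.26 to 12.2, against 12.7%, 11.4 to 14.1). In *atring1a,b* it held for a single peak (0.283%, against 2.62%), but 1 of the 2 lists of this genotype stands apart, with 25.98 Mb under peaks where the other 9 lists had 4.94 to 11.6 Mb and with 1965 peaks at an identical score of 3100. Missing peaks had low Col-0 scores, with medians of 105.3 in *clf-29* and 100.4 in *atbmi1a,b*.

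M89 was the highest-scoring of the peaks missing from both *clf-29* lists. It lies on chromosome 1 at 16867695 to 16869249, between the cyclase family gene AT1G44542 and NPQ4, which encodes the photoprotective PsbS protein of photosystem II. It had no peak in *clf-29* 1 and 2, scores of 391.58 in *tfl2-2*, 199.74 in *lhp1-6*, 276.71 in *atbmi1a,b* 1 and 3100 in *atring1a,b* 1, none in *atbmi1a,b* 2 or *atring1a,b* 2, and 298.57 and 78.71 in Col-0. NPQ4 had 1227 and 819 CPM (counts scaled to library size by TMM) in *clf-29* and 1170 and 472 CPM in Col-0, so that its levels overlapped, and AT1G44542 had 0 reads in both genotypes.

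M192 and M258 were missing from both *atbmi1a,b* lists. M192 (chromosome 2, 3668351 to 3669825) lies in the pseudogene AT2G09800 and had scores of 638.14 and 180.63 in *clf-29*, 851.99 in *tfl2-2*, 584.35 in *lhp1-6* and 1805.93 in *atring1a,b* 1, no peak in *atbmi1a,b* 1 and 2 or *atring1a,b* 2, and 531.48 and 96.27 in Col-0. AT2G09800 had 18 and 3 reads in *atbmi1a,b* and 7 and 2 reads in Col-0, too few to be tested. M258 (chromosome 3, 11108004 to 11109777) covers the transcribed pseudogene AT3G29150 and had scores of 456.15 and 397.77 in *clf-29*, 704.93 in *tfl2-2*, 467.42 in *lhp1-6* and 529.33 in *atring1a,b* 1, no peak in *atbmi1a,b* 1 and 2 or *atring1a,b* 2, and 458.44 and 193.59 in Col-0.

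AT3G29150 had 77 and 34 reads in *atbmi1a,b* and 75 and 21 reads in *atring1a,b*, against 3 and 2 reads in Col-0. Both mutants lay above Col-0 in every library, by 4.12 ± 0.97 (log2, SE, edgeR quasi-likelihood test, Benjamini-Hochberg adjusted p = 0.114) in *atbmi1a,b* and 3.98 ± 0.97 (adjusted p = 0.1001) in *atring1a,b*. Over all genes at the 31 peaks missing from both *atbmi1a,b* lists, 5 of 16 tested were called higher in *atbmi1a,b* and 0 lower (unadjusted p below 0.05 and a log2 fold change beyond 1 or -1, which 3.97% and 1.53% of all genes tested passed), against 10 higher and 8 lower of 122 tested at the 191 peaks present in both lists of *atbmi1a,b* and of Col-0. At the 38 peaks missing from *clf-29*, 1 of 17 tested genes was higher in *clf-29* and 0 lower (background 1.99% and 0.562%), against 4 and 1 of 168 at the peaks present. At the 9 peaks missing from the LHP1 mutants, 0 of 4 tested genes were higher and 1 lower (background 2.01% and 1.93%), against 10 and 9 of 186, and at the single one missing from *atring1a,b* the 1 tested gene was higher (background 5.01%), against 16 of 116. These counts are small and were not tested against each other.

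The 5 peaks of the next sentences were chosen as the top-scoring ones among those found in all 10 lists, so that their presence is no finding. Of the 186 peaks with the highest Col-0 scores, 43.0% were found in all 10 lists. M133 on chromosome 1 (17780121 to 17781916) covers PER1, the gene of a 1-cysteine peroxiredoxin known from seeds, and had the highest Col-0 score of the 559. Its scores were 1878.15 and 1046.69 in *clf-29*, 2387.68 in *tfl2-2*, 1907.18 in *lhp1-6*, 541.98 and 833.02 in *atbmi1a,b*, 3100 and 211.65 in *atring1a,b*, and 1031.83 and 588.88 in Col-0. The other peaks chosen in this way were M98, at the RNA-binding protein gene AT1G45100, M123, at the F-box gene AT1G47730, M484, at the transcribed pseudogene AT5G27037 and the MADS-box gene AGL101, and M538, at the cation/H+ exchanger gene CHX24. AT1G47730 had 0 reads in all 14 libraries, and CHX24 had a single read, in *atring1a,b* 2.

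M230 (chromosome 2, 6451357 to 6454302) covers GH3.1, of a family of enzymes that conjugate auxin to amino acids, and was less regular. Its scores were 1436.48 and 88.95 in *clf-29*, 2213.09 in *tfl2-2*, 1374.25 in *lhp1-6*, 449.02 in *atbmi1a,b* 1, 3100 in *atring1a,b* 1 and 673.47 in Col-0 1, and the second lists of *atbmi1a,b*, *atring1a,b* and Col-0 had no peak there. A loss in these mutants could therefore not be told from a difference between libraries. GH3.1 had 0.238 and 0.0493 CPM in *atring1a,b*, against 1.11 and 0.491 CPM in Col-0 (log2 fold change -2.34 ± 0.92, SE, edgeR adjusted p = 0.367), and both *atring1a,b* libraries lay below both Col-0 libraries.

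M440 (chromosome 4, 5667524 to 5669356) was present in all 10 lists. Its scores were 945.65 and 198.42 in *clf-29*, 1686.05 in *tfl2-2*, 942.82 in *lhp1-6*, 188.53 and 161.86 in *atbmi1a,b*, 3100 and 81.26 in *atring1a,b*, and 731.03 and 258.38 in Col-0. AT4G08868, an uncharacterized protein gene that holds the centre of M440, had 81 and 21 reads in *atbmi1a,b*, 62 and 20 in *atring1a,b* and 14 and 15 in *clf-29swn-21*, against 0 and 0 in Col-0. It was thus at least 29-fold, 25.6-fold and 10.6-fold higher, taking 3 reads over the Col-0 pair as the floor (edgeR adjusted p = 0.0578, 0.0509 and 0.0109). In *clf-29* it had 1 and 0 reads, and in *tfl2-2*, *lhp1-6* and both *swn* libraries 0.

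M302 (chromosome 3, 14200861 to 14203013) lies 945 bp from the 5.8S ribosomal RNA gene AT3G41979 and touches no annotated gene. Whether its own sequence is part of a ribosomal RNA gene missing from the annotation was not tested. Its scores were 788.03 and 396.06 in *clf-29*, 922.16 in *tfl2-2*, 996.64 in *lhp1-6*, 1019.90 and 366.48 in *atbmi1a,b*, 509.87 in *atring1a,b* 2, and 862.85 and 315.02 in Col-0, and *atring1a,b* 1, the list with the widest coverage, had no peak there. M302 and its neighbour M300 were the only ones of the 559 whose start and end recurred to the base in other lists, in 6 and 3 of them, and 0 of the 4001 arm peaks did so. Both, and M301 between them, lie within 10000 bp of ribosomal RNA genes, which are repeated in the genome, and how much reads from other copies add to these 3 peaks was not tested.

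**Figure D3:**
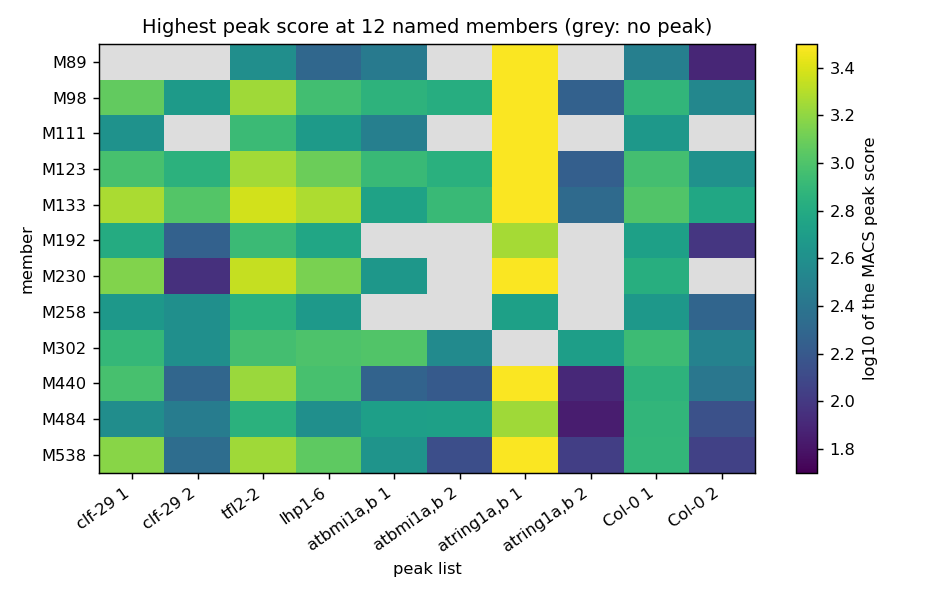
Highest peak score (log10 scale, colour) of each of 12 named centromere-proximal peaks in the 10 H3K27me3 lists, mutants to the left and Col-0 at the right, with grey where a list has no overlapping peak. M98, M123, M133, M440, M484 and M538 are coloured throughout, M89 is grey in both *clf-29* lists, M192 and M258 are grey in both *atbmi1a,b* lists, and M302 is grey only in *atring1a,b* 1.

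The mutant lists were also examined for peaks near centromeres where neither Col-0 list had one. Col-0 reads were not examined, so that such a place may carry the mark in Col-0 below the detection limit. For regions with more H3K27me3 in *clf-29*, the paper reports that those outside Col-0 peaks tended to be marked below its cutoff. Of each mutant list, the peaks under 4000 bp that touched no peak of either Col-0 list were counted in the windows and on the arms. In *atbmi1a,b* 33.2% and 46.7% of the window peaks were of this kind, against 12.7% and 21.6% of the arm peaks, and in *atring1a,b* 60.3% and 18.4%, against 37.5% and 4.96%. In the LHP1 mutants the shares were 33.9% (*tfl2-2*) and 25.5% (*lhp1-6*), against 24.3% and 20.4%, and in *clf-29* 16.7% and 18.0%, against 14.5% and 20.3%. The gap between windows and arms averaged 12.1 ± 10.1 percentage points (SD, n = 8 lists) and was above 0 in 7 of 8. All 8 lists were set against the same 2 Col-0 lists, so that this is a description with no test. Set against each other in the same way, the first and second Col-0 list gave gaps of -2.01 and 1.90 points. It was 20.5 ± 5.04 points in the 4 lists of *atbmi1a,b* and *atring1a,b* and 3.67 ± 4.99 points in the 4 lists of *clf-29* and the LHP1 mutants, which did not overlap (13.4 to 25.1 and -2.29 to 9.61). The difference of 16.8 points is a description, since the grouping was chosen after the values had been seen. Without *clf-29* 1 or *clf-29* 2 the difference was 16.3 or 14.8 points.

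The gap was above 0 on each of the 5 chromosomes in every *atbmi1a,b*, *atring1a,b*, *tfl2-2* and *lhp1-6* list, on 4 of 5 in *clf-29* 1 and on 1 of 5 in *clf-29* 2. Within the lists of plants grown at 21 °C the 2 groups of mutants differed by 15.7 points and within those at 22 °C by 17.9. These mutant peaks recurred in part. Of those in the windows, 62.6% and 44.4% of *atbmi1a,b* 1 and 2 met any peak in the other list of the genotype. The shares were 5.53% (26 of 470) and 52.6% of *atring1a,b* 1 and 2, 56.6% and 51.6% of *clf-29* 1 and 2, and 45.7% and 69.4% of *tfl2-2* and *lhp1-6*. The peak met could have any length and could itself touch a Col-0 peak. The window peaks outside Col-0 had median scores of 76.2 and 115.1 in *atbmi1a,b* and 253.2 and 68.0 in *atring1a,b*. The share of a list that fell into the windows was 14.2% ± 2.28 in the 8 mutant lists and 12.9% ± 0.98 in the 2 Col-0 lists (SD), a difference of 1.23 points that did not pass an exact permutation test (p = 0.556, where the smallest possible is 0.0222).

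**Figure D4:**
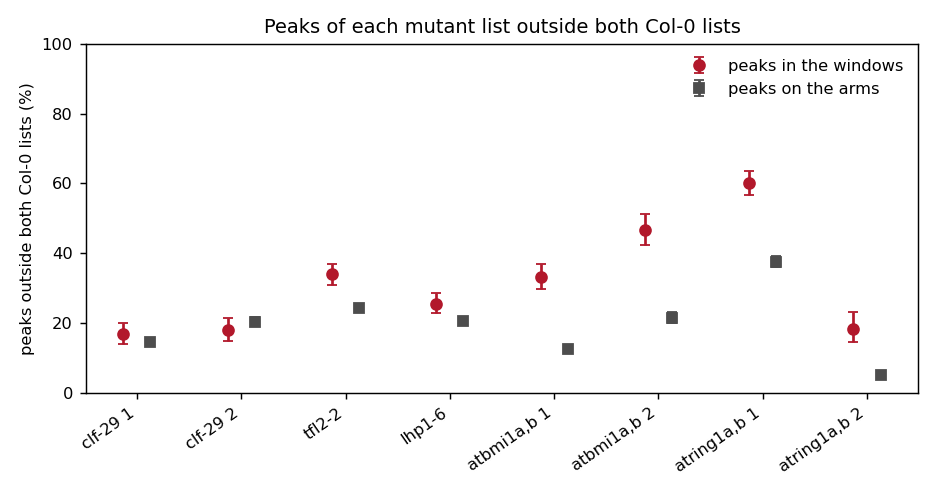
Percentage of the peaks of each mutant list under 4000 bp that overlap no peak of either Col-0 list, in the centromeric windows (red circles) and on the arms (grey squares), with 95% Wilson intervals that cover counting error only. In the *atbmi1a,b* and *atring1a,b* lists the window share lies 13.4 to 25.1 points above the arm share, and in the *clf-29* and LHP1 mutant lists -2.29 to 9.61 points.

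Expression was tested for 289 of the 633 genes at centromere-proximal peaks, those with enough reads, in 1 edgeR fit over all 14 libraries. In bulk tissue, more cells of a type and more RNA per cell cannot be told apart. Called genes had an unadjusted p below 0.05 and a log2 fold change beyond 1 or -1, and the number that also had a Benjamini-Hochberg adjusted p below 0.05 follows. The unadjusted counts carry no control for the number of genes tested. A gene with no read in Col-0 could enter only through a mutant in which it had reads, which favours higher calls, so that the counts are a description. In *atring1a,b*, 42 genes were higher (14.5%, against 5.01% of all 22060 genes tested) and 15 lower (5.19%, against 2.60%), with 8 and 3 after adjustment (background 1.24% and 0.136%). In *atbmi1a,b*, 29 were higher (10.03%, against 3.97%) and 24 lower (8.30%, against 1.53%), with 4 and 1 after adjustment (background 0.825% and 0.136%). In *clf-29swn-21*, 93 were higher (32.2%, against 16.3%) and 60 lower (20.8%, against 15.6%), with 79 and 41 after adjustment (background 13.8% and 13.0%).

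The other mutants had fewer calls at these peaks. In *clf-29*, 12 were higher (4.15%, against 1.99%) and 1 lower (0.346%, against 0.562%). In the LHP1 mutants, 17 were higher (5.88%, against 2.01%) and 14 lower (4.84%, against 1.93%), and in *swn* 12 were higher (4.15%, against 1.84%) and 7 lower (2.42%, against 1.06%). After adjustment edgeR called 0 of the 289 in these 3 genotypes. All 22060 genes gave 0.0227% higher and 0.00453% lower in *clf-29*, 0.0816% and 0.0181% in the LHP1 mutants and 0% in *swn*. In simulated data, unadjusted calls for *clf-29* included 733 false ones among 21736 genes. That is more than all unadjusted calls, higher and lower, that the real data gave for *clf-29*. False calls for *swn* and the LHP1 mutants are not given. No excess over the background is therefore read from the unadjusted counts of these 3 genotypes. The unadjusted counts rested in part on single libraries: without Col-0 1 they were 28 and 11 in *clf-29* and 28 and 30 in the LHP1 mutants, and without Col-0 2 they were 29 and 25 in *swn*. Genes at arm peaks gave nearly the same shares of higher genes, 13.3% in *atring1a,b*, 10.7% in *atbmi1a,b* and 32.4% in *clf-29swn-21*. For lower genes in *atbmi1a,b* they gave 1.45%, where the centromere-proximal genes gave 8.30%. Their shares of lower genes were also below the centromere-proximal ones in *atring1a,b* (2.63%), *clf-29swn-21* (14.1%), the LHP1 mutants (2.88%) and *swn* (1.75%). In *clf-29* the arm share, 1.26%, was the higher of the pair.

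The 24 genes lower in *atbmi1a,b* were spread over chromosomes 1 to 5 as 7, 5, 7, 4 and 1. SEP4, a MADS-box gene of flower organ identity at M149 and the one that passed the adjusted threshold, had 6.65 and 3.58 CPM in *atbmi1a,b* and 24.1 and 13.8 CPM in Col-0 (log2 fold change -1.89 ± 0.36, SE, edgeR adjusted p = 0.0481). It was also lower in *clf-29swn-21*, with 5.46 and 7.23 CPM (adjusted p = 0.00875), and reached 44.9 and 43.0 CPM in the LHP1 mutants (adjusted p = 0.480). The call in *atbmi1a,b* was lost without Col-0 1 (adjusted p = 0.212), *atbmi1a,b* 1 (0.0629) or *atbmi1a,b* 2 (0.293). ARGAH2, the arginase 2 gene at M438, had 165 and 210 CPM in *atbmi1a,b* and 192 and 169 CPM in *atring1a,b*, against 410 and 404 CPM in Col-0, with adjusted p = 0.0684 and 0.0463. Both mutant pairs lay below both Col-0 libraries, but the call in *atring1a,b* was lost without any of its own or the Col-0 libraries (adjusted p = 0.0797 to 0.222). The other 22 had adjusted p above 0.1. Chosen after the values had been seen, they include TRX5, for a thioredoxin, with 22.1 and 32.9 CPM in *atbmi1a,b* against 42.9 and 92.3 CPM in Col-0, and CALS5, for a callose synthase, with 0.326 and 0.0738 CPM against 2.14 and 0.541 CPM. Without the second *atbmi1a,b* library 14 genes were called lower.

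Several genes with few or no reads in Col-0 were higher in the PRC1 mutants. NAC060, a NAC-domain transcription factor gene at M329, had 50 and 62 reads in *atbmi1a,b*, 73 and 12 in *atring1a,b* and 858 and 675 in *clf-29swn-21*, against 0 and 0 in Col-0, and was thus at least 31.8-fold, 26.6-fold and 561-fold higher (edgeR adjusted p = 0.0178, 0.0227 and 0.000235). HDA7, a histone deacetylase gene under M517, had 51 and 36 reads in *atbmi1a,b* and 54 and 21 in *atring1a,b*, against 2 and 0 in Col-0, a ratio of 37.1 (95% counting interval 9.96 to 311) and 35.1 (9.395 to 295.5), with adjusted p = 0.0277 and 0.0284. In *clf-29swn-21* it had 3 and 1 reads. Without single libraries the call of NAC060 was lost in *atbmi1a,b* (adjusted p = 0.106 without Col-0 1, 0.0677 without Col-0 2 and 0.0633 without *atbmi1a,b* 2) and in *atring1a,b* (0.0693 without Col-0 1 and 0.104 without Col-0 2). That of HDA7 in *atbmi1a,b* was lost without any of its own or the Col-0 libraries (0.0897 to 0.138). NRPE3B, at M244 and for a subunit of the plant RNA polymerase of RNA-directed DNA methylation, had 11.2 and 15.0 CPM in *atbmi1a,b*, 12.6 and 7.79 CPM in *atring1a,b* and 13.7 and 16.5 CPM in *clf-29swn-21*, against 1.64 and 2.06 CPM in Col-0, with log2 fold changes of 2.82 ± 0.34, 2.46 ± 0.34 and 3.03 ± 0.34 (SE, adjusted p = 0.00528, 0.0104 and 0.000312). Without Col-0 1 its adjusted p in *atbmi1a,b* was 0.0571.

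PER1, under the strongest peak, had 18042 and 20081 reads in *clf-29swn-21*, 1431 and 73 in *atring1a,b* and 119 and 22 in *atbmi1a,b*, against 2 and 0 in Col-0. It was higher in *clf-29swn-21* (edgeR adjusted p = 0.000601). In *atbmi1a,b* the ratio was 60.1 (95% counting interval 16.3 to 501.0), and in *atring1a,b* it was 705 (195 to 5824), with adjusted p = 0.266 and 0.0360, while the peak M133 was present in both lists of either mutant. The call in *atring1a,b* was lost without Col-0 1 (adjusted p = 0.0860), Col-0 2 (0.217) or *atring1a,b* 1 (0.0628). The knottin-like gene AT1G47540, at M120, went with it, at 255 and 423 CPM in *clf-29swn-21*, 78.5 and 8.48 CPM in *atring1a,b* and 4.67 and 2.25 CPM in *atbmi1a,b*, against 0.176 and 0.00 CPM in Col-0. Its call in *atring1a,b* was lost without Col-0 1 (adjusted p = 0.0705) or Col-0 2 (0.161). In *clf-29swn-21* the glycine-rich protein genes AT2G05510 (3329 and 246 reads) and AT5G35660 (1413 and 1481 reads) had 0 reads in Col-0 and were at least 1309-fold and 1059-fold higher. Genes that fell there were PRB1, a pathogenesis-related protein gene with 0.00 and 0.268 CPM against 12.03 and 10.1 CPM in Col-0, the pseudogene AT3G43715, at least 46.1-fold lower with no read, and AT5G28237, for a pyridoxal phosphate-dependent enzyme, with 0 and 1 reads against 154 and 11 (a ratio of 0.00666, 0.000168 to 0.0376). The call of AT5G28237 was lost without Col-0 1 (adjusted p = 0.0637) or *clf-29swn-21* 1 (0.0934).

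Seed transcripts moved with these genes. CRA1, OLEO1 and SESA1, for seed storage and oil-body proteins, were all called higher without adjustment in *clf-29swn-21* (3 of 3, median log2 fold change 12.1) and *atring1a,b* (3 of 3, 8.37) and 2 of 3 in *atbmi1a,b* (4.55). After adjustment 3, 1 and 0 of them were called in these mutants. CRA1 had 4369 and 6239 CPM in *clf-29swn-21*, 770 and 50.9 CPM in *atring1a,b* and 46.2 and 12.03 CPM in *atbmi1a,b*, against 2.28 and 0.0491 CPM in Col-0. The leaf genes RBCS1A, LHCB2.1 and GL1 were lower in *clf-29swn-21* (3 of 3, median -2.18, all 3 also after adjustment) and in no other mutant. Root genes were near 0 in Col-0, where EXPA7 had no read, but the 2 of 4 with enough reads were higher in *clf-29swn-21* and 1 of them in *atbmi1a,b* and in *atring1a,b*. After adjustment these were 2, 0 and 0. WOX5 had 8.69 and 7.12 CPM in *clf-29swn-21*, against 0.439 and 1.13 CPM in Col-0, while CASP1 (13.99 and 0.696 CPM, against 0.351 and 0.688 CPM), EXPA7 (4.69 and 0.321 CPM) and COBL9 (5.20 and 0.161 CPM) were high in its first library only. The flower genes AG, AP3 and PI were higher in *clf-29*, *clf-29swn-21* and the LHP1 mutants (3 of 3 each), and 1 of 3 in *swn* and in *atring1a,b*, while 1 of 3 was lower in *atbmi1a,b*. After adjustment 2 were higher in *clf-29*, 3 each in *clf-29swn-21* and the LHP1 mutants, 1 in *atring1a,b* and 0 in *swn*, and 0 were lower in *atbmi1a,b*. The part of such cells in the changes at centromere-proximal peaks was not tested.

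RAP2.6, a gene of an AP2/ERF transcription factor at M77, moved in opposite directions. It had 21.0 and 19.2 CPM in *clf-29*, 66.4 and 68.1 in *swn*, 2.42 and 1.28 in *clf-29swn-21*, 3.63 and 1.87 in the LHP1 mutants, 17.0 and 20.04 in *atbmi1a,b* and 0.977 and 0.345 in *atring1a,b*, against 9.02 and 8.84 CPM in Col-0. No mutant pair overlapped with Col-0. The adjusted threshold was passed in *atring1a,b* (log2 fold change -3.68 ± 0.48, SE, edgeR adjusted p = 0.00994) and *clf-29swn-21* (-2.25 ± 0.45, adjusted p = 0.00465) and not in *swn* (2.91 ± 0.44, adjusted p = 0.303). PNC2, for a peroxisomal adenine nucleotide carrier, fell to 16.4 and 13.7 CPM in *atring1a,b*, against 48.1 and 39.6 CPM in Col-0 (adjusted p = 0.0393), a call lost without any of these 4 libraries (0.0797 to 0.193).

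In *clf-29*, the LHP1 mutants and *swn* the 3 genes with the smallest p are given as values. AT5G27037, the pseudogene at M484, had 18 and 16 reads in *clf-29*, against 2 and 1 in Col-0 (ratio 11.5, 95% counting interval 3.61 to 58.4), TLP5, for a tubby-like protein, had 0.899 and 4.26 CPM in *clf-29* and 3.15 and 3.83 CPM in the LHP1 mutants, against 0.0293 and 0.197 CPM in Col-0, and AT5G26620 had 44 and 69 reads in *clf-29* and 2 and 6 in Col-0. AGL44, a MADS-box gene at M211 known from root responses to nitrate, had 43 and 39 reads in the LHP1 mutants and 449 and 229 in *clf-29swn-21*, against 0 and 1 in Col-0. The zinc finger gene AT3G45260 had 25.5 and 28.1 CPM in the LHP1 mutants and 48.0 and 60.9 CPM in Col-0. In *swn*, AT4G07940, for a splicing factor-like protein, had 23 and 29 reads and AT5G35110 had 8 and 16, against 2 and 1 reads and 0 and 1 reads in Col-0. The mutant pairs lay apart from the Col-0 pair in each of these, but their adjusted p in these 3 genotypes lay between 0.118 and 0.795.

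**Figure D5:**
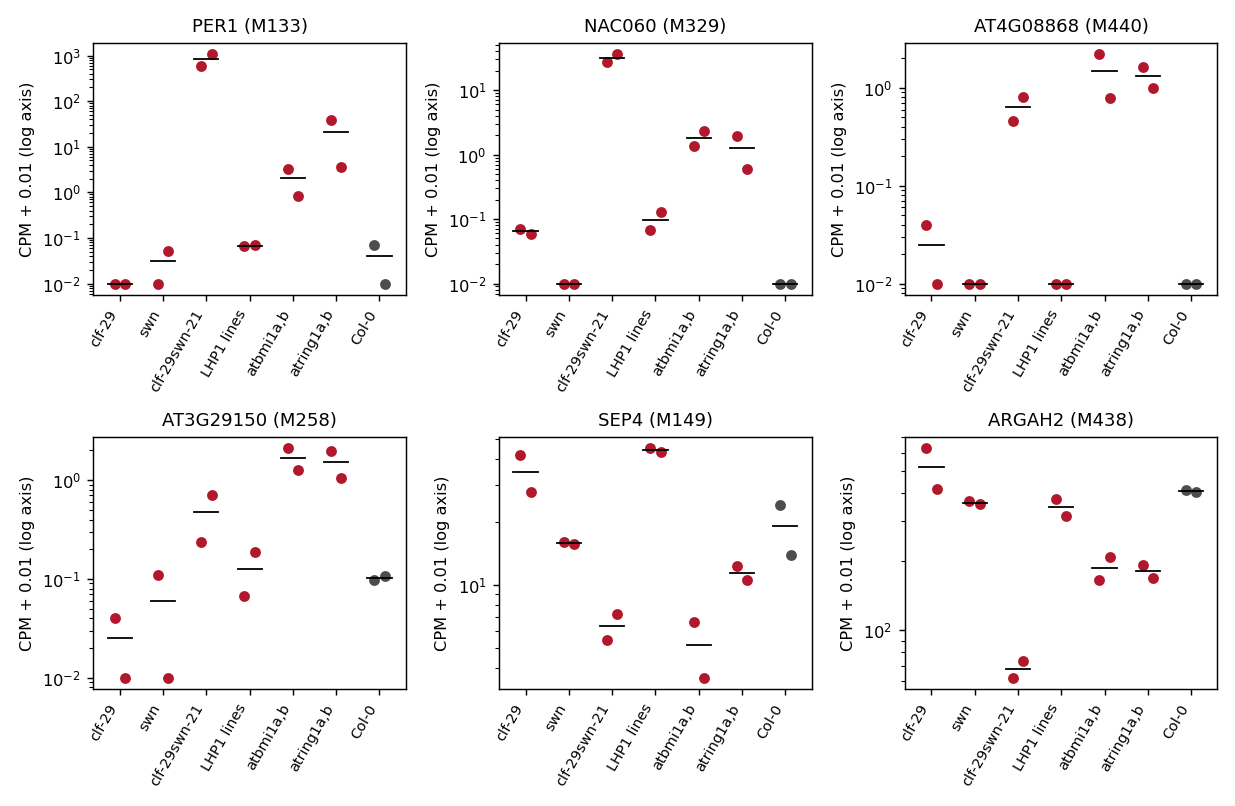
CPM + 0.01 on a log axis of 6 genes at centromere-proximal peaks in each of 14 libraries, with mutants in red, Col-0 in grey and a bar at the mean of each pair. PER1, NAC060, AT4G08868 and AT3G29150 lie above Col-0 in *clf-29swn-21*, *atbmi1a,b* and *atring1a,b*, while SEP4 and ARGAH2 lie below Col-0 there.

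By class, the 23 pseudogenes with enough reads of the 116 gave 9 higher and 2 lower in *atring1a,b*, 5 and 4 in *atbmi1a,b* and 6 and 7 in *clf-29swn-21*, and 1 to 3 higher and 0 lower in each of *clf-29*, *swn* and the LHP1 mutants. All genes tested gave 5.01% higher and 2.60% lower in *atring1a,b*, 3.97% and 1.53% in *atbmi1a,b* and 16.3% and 15.6% in *clf-29swn-21*. The other 93 pseudogenes had too few reads, and 70.7% of the 116 had no read in Col-0. Those without Col-0 reads could enter only through a mutant, which favours higher calls, and no share is read from the 23. Chosen after the values had been seen, AT2G14245 had 70 and 19 reads and AT3G43830 had 108 and 23 reads in *atring1a,b*, against 0 and 0 reads of either in Col-0. Of the 27 F-box genes only 4 could be tested, and 2 were higher in *clf-29swn-21* and none changed elsewhere. Of 20 genes of DNA methylation and heterochromatin, 0 were called in *clf-29*, *swn* and the LHP1 mutants, 1 was higher in *atbmi1a,b* and in *atring1a,b*, and 2 were higher and 1 lower in *clf-29swn-21*. After adjustment the call in *atbmi1a,b* was lost and the others stayed. Of 14 PcG genes tested, 3 were higher and 1 lower in each of *atbmi1a,b*, *atring1a,b* and *clf-29swn-21*. The lower one was a mutated gene itself, ATBMI1B, ATRING1B and CLF in turn, and the higher ones in *atring1a,b* include the mutated ATRING1A. In *clf-29* and in the LHP1 mutants 1 was higher and 1 lower, the lower one being CLF and LHP1, and in *swn* 0 were called. After adjustment 0, 1 and 2 were higher in *atbmi1a,b*, *atring1a,b* and *clf-29swn-21*. No share is read from so few genes.

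The targeted genes bear the labels out in part. CLF had 0.719 and 0.441 CPM in *clf-29*, and 1.55 and 2.41 CPM in *clf-29swn-21*, against 38.9 and 29.2 CPM in Col-0, LHP1 had 0.00 CPM in *tfl2-2* and 1.72 CPM in *lhp1-6*, against 28.7 and 35.9 CPM, and ATBMI1B had 4.37 and 4.87 CPM in *atbmi1a,b*, against 12.2 and 16.8 CPM. ATRING1B had 1.64 and 0.690 CPM in *atring1a,b*, against 8.14 and 15.7 CPM. SWN in the libraries labelled *swn* (91.6 and 89.4 CPM) and *clf-29swn-21* (118.4 and 106.6 CPM, edgeR adjusted p = 0.01005 for a higher level, against 48.7 and 71.7 CPM in Col-0), ATBMI1A (13.9 and 22.6 CPM in *atbmi1a,b*, against 14.5 and 11.3 CPM) and ATRING1A (601 and 828 CPM in *atring1a,b*, against 14.4 and 18.7 CPM) were not lower. Counts over a whole gene do not show where an insertion sits, so that for these genes the counts check nothing. The paper states that it checked every sample's genotype with these RNA-seq reads. Its supplement describes a case in which later exons were expressed from the inserted DNA.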

How the data were processed

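H3K27me3 ChIP-seq (single-end) was compared in 10 libraries and RNA-seq (paired-end) in 14, and the controls without antibody were not used here. By the Methods, BWA (ChIP) or TOPHAT (RNA) placed the reads on TAIR10. The authors called peaks with MACS in each ChIP library and deposited lists with a score per peak, whose scale is not given in the sources used here. Reads of low mapping quality had been removed, which can lower coverage of repeats. For RNA, the authors deposited whole-number HTSeq counts per gene with no normalization, and reads on no gene or several genes (2.66% to 3.43% of a library) were left out. A table with the authors' log2 fold changes and p-values was not used.

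The members, gene lists and tests were chosen with earlier results of these data known. The 10 lists held 2209 to 7523 peaks, and the RNA libraries 17277027 to 36205758 reads on genes. Of 33602 genes, 32835 (97.7%) matched the RefSeq annotation of TAIR10.1. A gene was at a peak if the peak touched its body or the 1000 bp upstream. Lists were compared by overlaps of 1 bp, with exact two-sided sign-flip or permutation tests over lists. Counts were fitted in edgeR 4.0.16 (limma 3.58.1, R 4.3.3) with filterByExpr, TMM and the robust quasi-likelihood test over 7 groups. The scripts were tested on simulated data in which 200 well-covered genes had been changed 4-fold, with a spread taken from the trend over expression level. Unadjusted calls recovered 97% of these for *clf-29*, with 733 false calls among 21736 genes. For *atbmi1a,b* they recovered 93.5% with 693 false calls, and for *atring1a,b* 97% with 646. Adjusted calls recovered 70.5%, 71.5% and 68%, with 7, 4 and 7 false calls. Recovery was not measured for genes with few reads, such as many at the centromere-proximal peaks. Named peaks were the top-scoring one of each window, the 5 top-scoring ones in all 10 lists, those in no other list (none existed), the 3 top-scoring ones missing from a genotype and the longest. Named genes lie at these peaks, or were the 3 largest changes in each direction past an adjusted p of 0.05, or else the 3 with the smallest p. Further tools were Python 3.11.15, numpy 2.4.6, scipy 1.17.1, pandas 2.3.3 and matplotlib 3.10.9. Alternatives were other overlaps, thresholds, windows, arm sets, tools (DESeq2 1.42.0), filters, designs and libraries left out. Wilson intervals, counting intervals and floors cover counting error only, since PCR copies are not independent molecules.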

Additional observations from a re-analysis of the deposited data

Results flagged for a closer look

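The excess of window peaks outside both Col-0 lists, relative to the arms, was larger in *atbmi1a,b* and *atring1a,b* than in *clf-29* and the LHP1 mutants, by 16.78 percentage points (4 lists against 4, exact permutation test, two-sided, p = 0.0286, the smallest possible). It is listed because 2 groups of mutants differed under the same contrast. The grouping was chosen after the same values had been seen not to overlap, which fixes that p, so that it is no independent support. Without *atring1a,b* 1, the list with the widest coverage, the difference was 16.0 points (exact p = 0.0286). It no longer passed without *clf-29* 1 (16.3 points) or *clf-29* 2 (14.8 points), or with peaks of scores of at least 100 (13.86 points, exact p = 0.0571 in each). Without either *clf-29* list the 2 groups still did not overlap, so that this p reflects the few possible splits of the lists.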

How the results depend on the processing

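The difference in kept share between centromere-proximal and arm peaks (-0.48 points) had no stable sign: it was 0.2925 with 50% of the peak covered, 0.2911 with arm peaks of every length, 1.329 and 1.465 with arm peaks weighted to the scores or lengths of the members, and -1.219 to 0.1733 with single lists left out, and passed no test. The lower scores of window peaks lost their call with arm peaks weighted by length (-10.72, exact p = 0.137). For window peaks outside both Col-0 lists, the difference between the 2 groups of mutants was 13.86 points at scores of at least 100 (exact p = 0.0571, chosen after seeing the data). It was 14.79 to 19.12 points with single lists left out.

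For genes at centromere-proximal peaks, the adjusted threshold left 0 higher and 0 lower in *clf-29*, *swn* and the LHP1 mutants, 4 and 1 in *atbmi1a,b* and 8 and 3 in *atring1a,b*. With DESeq2, 4 genes were lower in *clf-29*, 12 in *swn* and 24 in the LHP1 mutants. With only the 4 libraries compared, 3 were lower in *clf-29* and 1 in *swn*, 17 higher and 12 lower in *atbmi1a,b* and 26 higher in *atring1a,b*. With growth temperature in the fit, 2 were lower in *clf-29* and 2 in *swn*, and without a filter on low counts 2 were lower in *clf-29*. With single libraries left out, the counts of higher and lower genes ranged over 9 to 28 and 1 to 11 in *clf-29*, 7 to 29 and 0 to 25 in *swn*, 79 to 113 and 38 to 55 in *clf-29swn-21*, 9 to 28 and 5 to 30 in the LHP1 mutants, 24 to 26 and 14 to 26 in *atbmi1a,b* and 28 to 54 and 12 to 23 in *atring1a,b*. The causes were not tested.

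The labels do not say that replicate numbers pair libraries, although the number goes with growth temperature in all groups but *swn* and the LHP1 mutants. Deviations of libraries with the same number correlated at 0.272 to 0.761 among Col-0 and the mutants *atring1a,b*, *atbmi1a,b* and *clf-29* and at -0.135 to 0.064 otherwise. With the replicate block, 2 genes were lower in *clf-29*, and 20 higher and 3 lower in *swn*. Calls lost with the block were NAC060 and SEP4 in *atbmi1a,b* (adjusted p = 0.0650 and 0.0618) and NAC060, PER1, PNC2 and ARGAH2 in *atring1a,b* (0.0678, 0.0667, 0.0670 and 0.102). For the named genes, 191 of 246 alternative values kept their direction and side of the threshold, 48 lost the call, 7 gained it and 0 reversed. The peak lists hold no read depth, so a peak missing from a list may lie below its detection limit.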
